A study of Mus musculus with 7 samples.

Results

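The transcripts described here encode enzymes and structural proteins of the cornified envelope, the cross-linked protein shell that replaces the plasma membrane of a keratinocyte as it dies at the skin surface. They are the transglutaminases Tgm1, Tgm2, Tgm3 and Tgm5, the scaffold proteins envoplakin (Evpl), periplakin (Ppl) and sciellin (Scel), and the secreted keratinocyte proteins Krtdap, suprabasin (Sbsn) and dermokine (Dmkn). The genes were chosen by name, as probes of the arrays that are not controls and carry one of these gene names. All 10 were found, with 17 probes in all, among 17101 genes tested in the series. Each of the 17 probes was well above background in 14 of 14 channels and was not saturated, so no member was lost to the filter on dim probes.

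Transglutaminases join glutamine and lysine side chains of neighbouring proteins by a bond that proteases do not cut. In the upper epidermis envoplakin and periplakin line the inner face of the membrane with involucrin and tie it to desmosomes and keratin filaments, transglutaminase 1 cross-links this layer and can attach barrier ceramides to it, and loricrin and small proline-rich proteins are then added from within. Loss of transglutaminase 1 causes lamellar ichthyosis in people, and loss of transglutaminase 5 causes a peeling skin syndrome. Transglutaminase 2 is made by many cell types, among them endothelial cells and macrophages.

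The study measured dorsal skin RNA of hairless mice (strain HR-1, males, 5 weeks old) fed an AIN-93G diet with or without glucosylceramide (GC), a sphingolipid of a sugar and a ceramide. Each of 7 two-colour arrays held a GC-fed and a control-fed sample. On 3 arrays (before SDS) the skin of both had no detergent and the diet had run for 12 days; on 4 arrays (after SDS) the skin of both had been exposed to 10% sodium dodecyl sulfate (SDS), a detergent that damages the skin barrier, for 5 minutes on each of 2 days, and the diet had run for 14 days. The labels call the arrays of a group biological replicates and do not say whether RNA of several mice was pooled, so p-values measure the spread between these samples. The diet effect is the log2 ratio of the GC-fed to the control-fed sample, a level is a normalized log2 intensity, and an SDS effect is the log2 difference after minus before SDS within a diet. A gene with several probes is given by its brightest probe, and levels of different genes are not compared.

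Sbsn, Dmkn and Krtdap are neighbours: the RefSeq gene table placed 0 other protein-coding genes between them on chromosome 7. Of the 10 genes, 7 had promoter sequences in the RefSeq table of assembly GRCm38.p6 (Tgm1, Tgm3, Tgm5, Scel, Krtdap, Sbsn and Dmkn). The 250 bases before the start are shown for the 3 neighbours and for Scel, because these 4 held the letters TGANTCA, where N is any base. This is a looser form of the core that AP-1 transcription factors recognise. Dmkn and Krtdap held TGAGTCA and Scel TGACTCA, the letters of that core, while Sbsn held TGAATCA, which departs from it in the middle base. The motif TGANTCA reads the same on both strands, so both were searched, and it is in capitals. All 4 lie on the + strand, Sbsn at chr7:30751221-30751470, Dmkn at chr7:30763506-30763755 (the first of 3 listed starts), Krtdap at chr7:30787655-30787904 and Scel at chr14:103513091-103513340.
Sbsn: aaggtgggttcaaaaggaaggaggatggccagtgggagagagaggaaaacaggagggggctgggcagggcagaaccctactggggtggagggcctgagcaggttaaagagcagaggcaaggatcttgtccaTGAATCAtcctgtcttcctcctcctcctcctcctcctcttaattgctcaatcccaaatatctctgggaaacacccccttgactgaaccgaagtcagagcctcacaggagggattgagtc
Dmkn: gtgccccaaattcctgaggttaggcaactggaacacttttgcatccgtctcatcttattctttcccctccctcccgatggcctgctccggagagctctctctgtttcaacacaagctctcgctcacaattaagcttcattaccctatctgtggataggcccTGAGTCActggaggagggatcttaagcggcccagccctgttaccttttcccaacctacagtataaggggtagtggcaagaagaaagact
Krtdap: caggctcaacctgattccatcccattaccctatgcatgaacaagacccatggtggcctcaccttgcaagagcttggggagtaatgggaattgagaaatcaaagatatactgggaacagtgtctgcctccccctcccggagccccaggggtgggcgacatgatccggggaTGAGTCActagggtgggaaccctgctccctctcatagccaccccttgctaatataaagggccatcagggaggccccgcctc
Scel: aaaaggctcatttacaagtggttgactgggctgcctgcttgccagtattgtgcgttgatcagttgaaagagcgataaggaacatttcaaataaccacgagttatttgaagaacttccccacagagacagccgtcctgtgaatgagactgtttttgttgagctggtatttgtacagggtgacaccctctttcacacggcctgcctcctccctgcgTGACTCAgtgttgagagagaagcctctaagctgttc
The motif began 119 bases before the start in Sbsn, 89 in Dmkn, 81 in Krtdap and 36 in Scel. It was absent from the same window of Tgm1, Tgm3 and Tgm5. Of all 32851 windows of this length in the table, 6.75% held it. The motif was picked with these sequences in view, and a match of letters is a description, not a binding site.

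The median green spot signal was 237.5, 240.1 and 240 on the before-SDS arrays and lower, at 178.5, 189, 199.7 and 198.8, on the after-SDS arrays. Green spots well above background made up 52.58% to 54.49% before SDS and 48.48% to 51.43% after it. The median red signal was 179.8 to 207.8, and both groups overlapped there. Local backgrounds were 53.5 to 59. All before-SDS arrays came from 1 slide and scan, and all after-SDS arrays from a different one. The diet had also run for 12 days on the former and 14 on the latter. SDS, slide and days on the diet thus cannot be told apart in the SDS effects, while each diet ratio lies within an array. After-SDS array 4 stood apart from the others: over 17101 genes, which are not independent replicates, its diet ratios correlated with arrays 1, 2 and 3 at r = -0.499, -0.623 and -0.302, although arrays 3 and 4 carry the same dyes. Before-SDS array 1, alone in its group with GC-fed RNA in Cy3, correlated with arrays 2 and 3 at r = -0.404 and -0.181. Read as red over green, without regard to diet, after-SDS arrays 1, 2 and 4 correlated pairwise at r = 0.497, 0.499 and 0.623. Array 3 was then the opposed one, at r = -0.315, -0.426 and -0.302 with arrays 1, 2 and 4. Before-SDS array 1 was then at r = 0.404 and 0.181 with arrays 2 and 3. Whether these signs follow dye or diet was not tested. Whether the GC-fed and control-fed channels of array 4 were exchanged was not tested either. Turning array 4 would change the sign of each of its ratios. The labelled directions were kept, and results are given with and without these arrays where they change.

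The scaffold transcripts Ppl and Scel fell after SDS in both diets. Ppl levels were 2.00-fold lower after SDS in control-fed skin and 1.72-fold lower in GC-fed skin, and Scel 1.86-fold and 1.87-fold lower. Krtdap passed in control-fed skin and Tgm5 in GC-fed skin, and for neither did the difference between diets pass. In control-fed skin 3 of 10 members passed and all 3 were lower, where 14.9% of all genes passed, 8.09% as lower and 6.84% as higher. In GC-fed skin 3 of 10 passed, also lower, against 13.5% of genes, 7.23% lower and 6.27% higher. The members' median SDS effect was -0.39 in control-fed skin, with 0 of 10 above 0 against 50.2% of all genes. It was -0.37 in GC-fed skin, with 2 of 10 above 0 (Evpl and Sbsn) against 50% of all genes. The median of all genes was 0.0009 and 0.0002. Without after-SDS array 4, singled out because its diet ratios opposed the rest, more genes passed. In control-fed skin 6 of 10 members and 3671 of 17101 genes then passed, and in GC-fed skin 5 of 10 and 2751. In whole skin, fewer cells of a type and less RNA per cell cannot be told apart.

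Ppl, whose product periplakin pairs with envoplakin under the membrane, was at 13.37, 13.25 and 13.45 in control-fed skin before SDS and at 12.11, 12.09, 12.49 and 12.58 after it. In GC-fed skin it was at 13.23, 13.24 and 13.67 before and at 13.12, 12.70, 12.60 and 12.11 after. Every after-SDS sample lay below every before-SDS sample of its diet. The limma effect was -1.0 (SE 0.18, adjusted p = 0.00574) in control-fed and -0.78 (SE 0.18, adjusted p = 0.0182) in GC-fed skin. The dimmer Ppl probe gave -0.61 in control-fed skin, which passed (limma adjusted p = 0.0168), and -0.26 in GC-fed skin, which did not (adjusted p = 0.25). Without before-SDS array 1 the control-fed call was lost (-0.79, limma adjusted p = 0.0647). The GC-fed call was lost when 1 of the before-SDS arrays 2 (-0.81) and 3 (-0.60) or array 3 after SDS (-0.82) was left out.

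Scel encodes sciellin, a precursor of the envelope with repeats and a LIM domain. Its levels in control-fed skin were 10.69, 10.63 and 10.78 before SDS and 9.62, 9.85, 9.81 and 9.91 after it. In GC-fed skin they were 10.61, 10.89 and 11.25 before and 10.02, 10.27, 10.27 and 9.51 after. The groups did not overlap in either diet, and control-fed samples varied little, with an SD of 0.08 before (n = 3) and 0.12 after (n = 4). The effect was -0.90 in both diets (SE 0.18 each; limma adjusted p = 0.00921 and 0.0113). Without before-SDS array 1 it was -0.81 in control-fed skin (limma adjusted p = 0.079), and without before-SDS array 2 (-0.91) or array 3 (-0.73) the GC-fed call was lost. Ppl and Scel were the only members whose after-SDS samples all lay below all before-SDS samples in both diets, which 7.69% of all genes did.

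Evpl, the partner of Ppl, did not pass. Its level was 14.80 ± 0.09 (SD, n = 3) before and 14.60 ± 0.14 (SD, n = 4) after SDS in control-fed skin, and 14.72 ± 0.06 and 14.95 ± 0.42 in GC-fed skin. The SDS effect was -0.18 (SE 0.17, limma adjusted p = 0.488) in control-fed and 0.21 (SE 0.17, adjusted p = 0.426) in GC-fed skin. After SDS the GC-fed samples spread widely, at 15.32, 15.01, 15.12 and, on array 4, 14.35. The dimmer probe gave -0.47 and -0.32, so the GC-fed value changed sign with the probe. Without after-SDS array 4 the brighter probe rose in GC-fed skin (0.44, limma adjusted p = 0.0182).

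Among the transglutaminases, Tgm5, which acts in the upper epidermis, fell in GC-fed skin. It was at 8.92, 9.08 and 9.36 before SDS and at 8.50, 8.68, 8.75 and 8.35 after it, with no overlap, a 1.47-fold fall (-0.55, SE 0.15, limma adjusted p = 0.029). In control-fed skin the levels 8.93, 8.70 and 9.03 before overlapped with 8.30, 8.41, 8.60 and 8.83 after (-0.35, SE 0.15, limma adjusted p = 0.127). Without after-SDS array 4 Tgm5 fell in control-fed skin as well (-0.47, limma adjusted p = 0.0238). The difference of the SDS effect between diets was not past the threshold (-0.21, SE 0.21, limma adjusted p = 1.0). The GC-fed call was lost when 1 of the before-SDS arrays 2 (-0.57) and 3 (-0.43), or 1 of the arrays 1 (-0.52) and 3 (-0.64) after SDS, was left out. It was also lost with quantile normalization of all channels (-0.48, limma adjusted p = 0.105). With the scanner's processed signals none of the 3 GC-fed calls held (Tgm5 -0.53, Ppl -0.73, Scel -0.76).

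Tgm2, the tissue transglutaminase, had levels of 13.59, 13.61 and 13.51 before and 13.45, 13.08, 13.28 and 12.93 after SDS in control-fed skin, where the groups did not overlap. In GC-fed skin it was at 13.40, 13.21 and 13.52 before and at 12.62, 12.96, 12.76 and 13.40 after, where after-SDS array 4 reached the before-SDS values. Its effects of -0.41 and -0.42 (SE 0.16 each) did not pass (limma adjusted p = 0.102 and 0.101). In control-fed skin 4 of 10 members did not overlap (Tgm2, Ppl, Scel and Krtdap), against 16.1% of genes, and in GC-fed skin 3 of 10 (Tgm5, Ppl and Scel), against 12.1%. Without after-SDS array 4 Tgm2 fell in GC-fed skin (-0.60, limma adjusted p = 0.0166). Its 2 dim probes gave -0.05 and -0.06 in control-fed skin.

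Tgm1, the membrane-bound enzyme of the epidermal envelope, was at 11.41 ± 0.15 (SD, n = 3) before and 11.00 ± 0.22 (SD, n = 4) after SDS in control-fed skin, and at 11.39 ± 0.08 and 11.32 ± 0.38 in GC-fed skin. Its SDS effects were -0.38 (SE 0.17, limma adjusted p = 0.147) and -0.09 (SE 0.17, adjusted p = 0.762). Without after-SDS array 4 it fell in control-fed skin (-0.51, limma adjusted p = 0.00538). Tgm3, the transglutaminase of hair follicle and upper epidermis, was nearly level at 8.63 ± 0.10 before and 8.52 ± 0.18 after in control-fed and 8.64 ± 0.09 and 8.55 ± 0.22 in GC-fed skin, with effects of -0.10 and -0.10 (SE 0.12 each). Its 95% intervals of -0.37 to 0.17 in both diets do not reach the effects of Scel and of the brighter Ppl probe. The dimmer Ppl probe lay outside this interval in control-fed skin (-0.61) and inside it in GC-fed skin (-0.26).

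Of the neighbours on chromosome 7, Krtdap alone passed. Krtdap, a secreted peptide of differentiating keratinocytes, was at 15.02, 14.40 and 14.50 before and 13.57, 13.87, 13.85 and 14.23 after SDS in control-fed skin, with no overlap, a 1.69-fold fall (-0.75, SE 0.22, limma adjusted p = 0.0404). In GC-fed skin 14.70, 14.93 and 14.39 before overlapped with 14.58, 14.25, 14.69 and 13.88 after (-0.33, SE 0.22, adjusted p = 0.351). The control-fed call was held without after-SDS array 4 (-0.93) and lost without any other single array, with values from -0.88 to -0.46. It was also lost with the scanner's processed signals (-0.72), no filter on dim probes, the replicate number as a block (-0.73) and the authors' gene-level table (-0.71). The difference between diets was 0.43 (SE 0.37, limma adjusted p = 1.0).

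Dmkn, a secreted protein of granular cells, was at 15.46 ± 0.32 (SD, n = 3) before and 14.85 ± 0.41 (SD, n = 4) after SDS in control-fed skin (-0.58, SE 0.25, limma adjusted p = 0.131). In GC-fed skin it was at 15.67 ± 0.16 and 15.24 ± 0.44 (-0.46, SE 0.25, adjusted p = 0.236). It fell in control-fed skin without after-SDS array 4 (-0.80, limma adjusted p = 0.0255) and in GC-fed skin without before-SDS array 1 (-0.81). Sbsn, secreted by suprabasal keratinocytes, stayed within its spread by its brighter probe: 16.43 ± 0.31 and 16.35 ± 0.28 in control-fed (-0.08, SE 0.22) and 16.60 ± 0.25 and 16.70 ± 0.39 in GC-fed skin (0.09, SE 0.22). The dimmer Sbsn probe gave -0.59 (SE 0.30) in control-fed and -0.48 (SE 0.30) in GC-fed skin, and neither passed (limma adjusted p = 0.200 and 0.316).

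**Figure D1:**
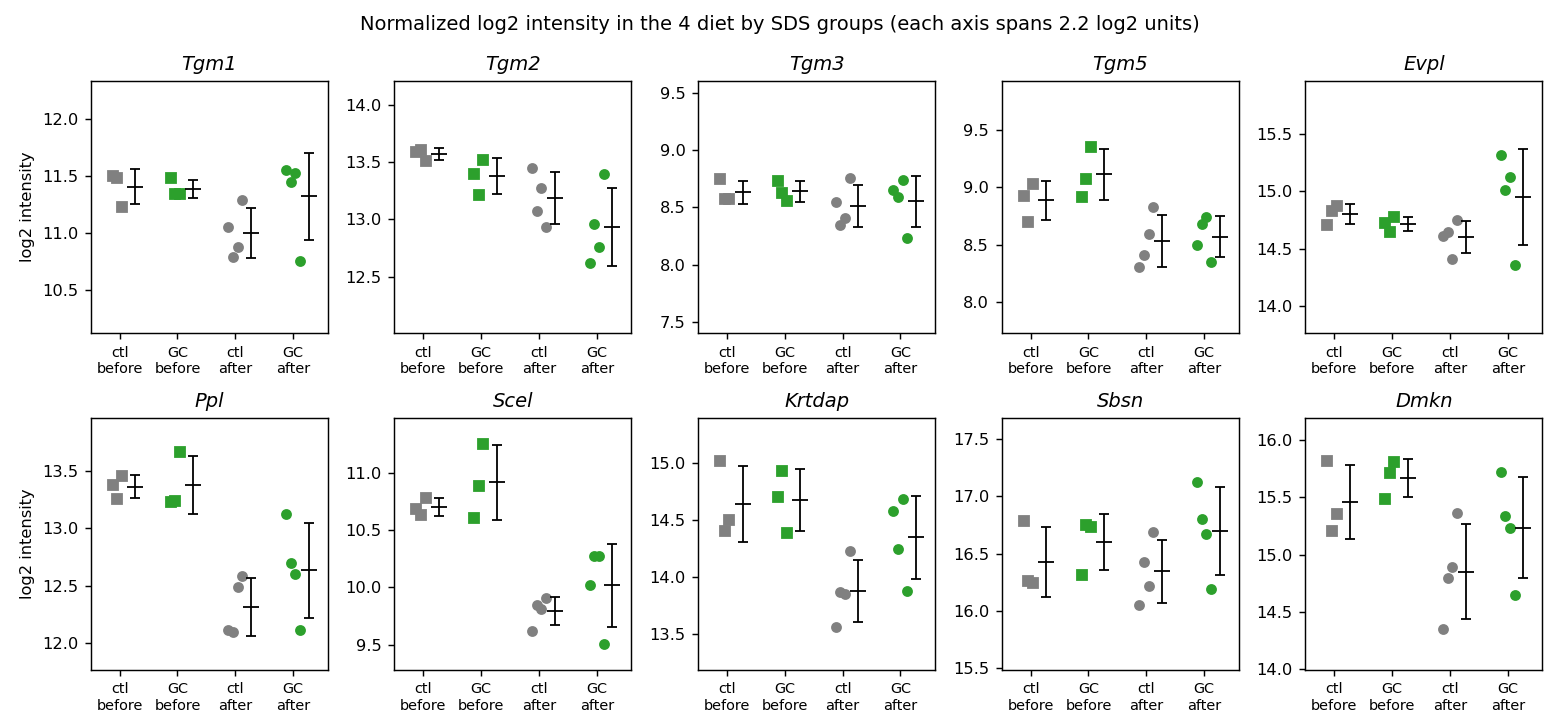
Normalized log2 intensity of the brightest probe of each gene in control-fed (grey) and GC-fed (green) skin before (squares, 3 arrays) and after SDS (circles, 4 arrays), with the mean and SD of each group as a bar. The after-SDS points of Ppl and Scel lie below all before-SDS points in both diets, with Scel control-fed means of 10.70 and 9.80.

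**Figure D2:**
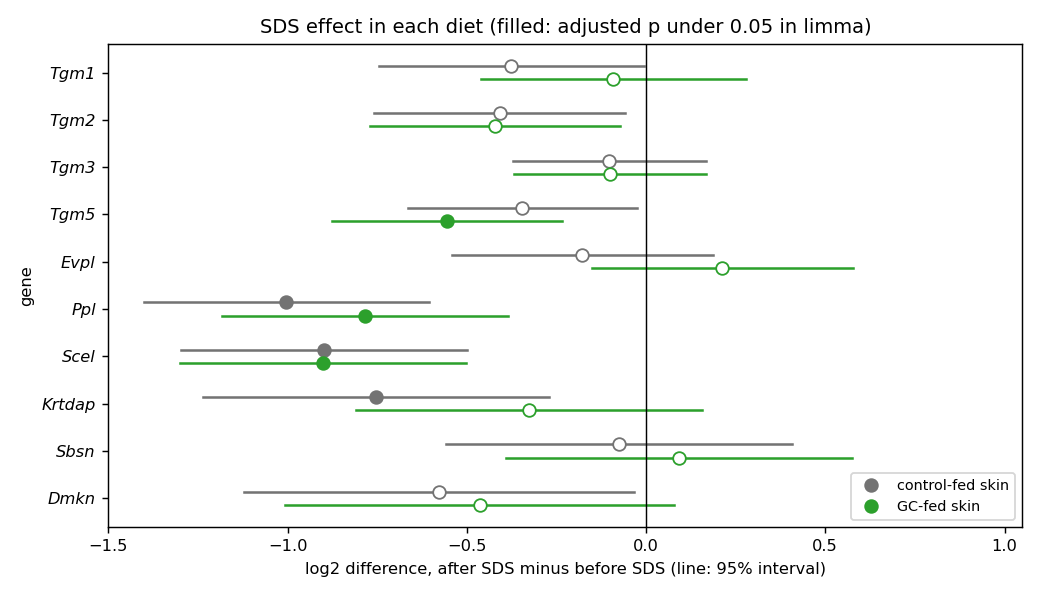
Log2 difference after minus before SDS from limma's separate-channel fit for control-fed (grey) and GC-fed (green) skin, with 95% intervals as lines and filled points where the adjusted p is under 0.05. Ppl at -1.0 and -0.78 and Scel at -0.90 and -0.90 are filled in both diets, Krtdap in control-fed and Tgm5 in GC-fed skin.

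Before SDS no diet effect was found in the members, with limited precision. The 95% intervals ran from -0.35 to 0.42 for Tgm3 and from -0.59 to 1.13 for Dmkn, so larger differences are not excluded. In limma 0 of 10 passed, as did 0% of all genes (68 genes, 0.398%, had an unadjusted p under 0.05, and 0 of them were members). The fitted diet effect, corrected for dye, was above 0 in 8 of 10 members, against 48.8% of all genes, with a median of 0.07 and a range from -0.24 (Tgm2) to 0.27 (Dmkn). None of the 10 had the same sign on all 3 arrays, where 9.3% of all genes were above and 9.59% below 0 on each.

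Tgm1 ratios before SDS were -0.02, -0.14 and 0.11 on arrays 1, 2 and 3, and Tgm3 ratios were -0.01, 0.06 and -0.02. Both enzymes lay at 0 within their spread. Tgm5 was at -0.01, 0.38 and 0.32 and Tgm2 at -0.19, -0.39 and 0.01, each with 2 of 3 arrays on the same side. For the scaffold genes, Evpl was at 0.02, -0.18 and -0.10, Ppl at -0.15, -0.01 and 0.21, and Scel at -0.08, 0.26 and 0.47. These ratios straddled 0 as well.

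The chromosome 7 neighbours had the widest before-SDS ratios, and these split by dye. Sbsn was at -0.47, 0.49 and 0.49, and Dmkn at -0.33, 0.51 and 0.46. Read as red over green, without regard to diet, Sbsn was at 0.47, 0.49 and 0.49 and Dmkn at 0.33, 0.51 and 0.46, so red was the brighter channel whichever diet it held. Krtdap did not follow this, at -0.32, 0.52 and -0.11. Without before-SDS array 1 the members' median rose from 0.07 to 0.49, with the dye term then taken from the after-SDS arrays alone.

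After SDS the members shared a sign on each array, apart from Tgm2, but not the same sign on all 4. On arrays 1, 2 and 3 the median ratio of the 10 was 0.61, 0.38 and 0.40, with 9 of 10 above 0 on each. On array 4 it was -0.47, with 1 of 10 above 0. All genes had medians between -0.02 and 0.02 on these arrays. The pattern of 3 arrays above and array 4 below 0 was that of Tgm1, Tgm3, Tgm5, Evpl, Ppl, Scel, Krtdap, Sbsn and Dmkn, 9 of 10 members, and of 13% of all genes. Tgm2 had the reverse pattern, as did 17.2% of genes. With the sign of array 4 turned, those 9 members would lie above 0 on all 4 arrays and Tgm2 below. Read as red over green, without regard to diet, those 9 lay below 0 on arrays 1, 2 and 4 and above 0 on array 3. Tgm2 had the reverse of this as well. Whether array 3 or array 4 is the odd one was not tested. As labelled, 0 members lay above 0 on all 4 arrays, as 3.35% of genes did, and 0 lay below, as 4.61% did.

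Tgm1 was at 0.50, 0.66 and 0.65 on arrays 1 to 3 and at -0.54 on array 4. Tgm3 was at 0.10, 0.25, 0.33 and -0.53, and Tgm5 at 0.19, 0.27, 0.15 and -0.48. The epidermal transglutaminases thus shared the order of signs, with Tgm1 the farthest above 0 of the 3 on each of arrays 1 to 3. Tgm2 was at -0.83, -0.12, -0.51 and 0.46. This opposite sign on every array was that of its brightest probe only. It is also seen in F13a1, the coagulation transglutaminase of macrophages and platelets, at -0.45, -0.14, -0.93 and 0.47. F13a1 is also 1 of the macrophage markers described below. The 3 measured genes of the transglutaminase fold outside the members, F13a1 among them, did not share it as a list. Their medians were -0.0015, -0.11, 0.225 and 0.19, with 2 of 3 above 0 on array 3.

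Evpl was at 0.71, 0.37 and 0.71 on arrays 1 to 3 and -0.39 on array 4. Ppl was at 1.02, 0.61, 0.12 and -0.47, and Scel at 0.40, 0.42, 0.46 and -0.40. Scel thus gave nearly the same value on 3 arrays, while Ppl ranged widely over the same 3. Krtdap was at 1.01, 0.38, 0.83 and -0.35, Sbsn at 1.07, 0.38, 0.45 and -0.50, and Dmkn at 1.37, 0.54, 0.34 and -0.71. Array 1 held the highest ratio of each of these neighbours.

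**Figure D3:**
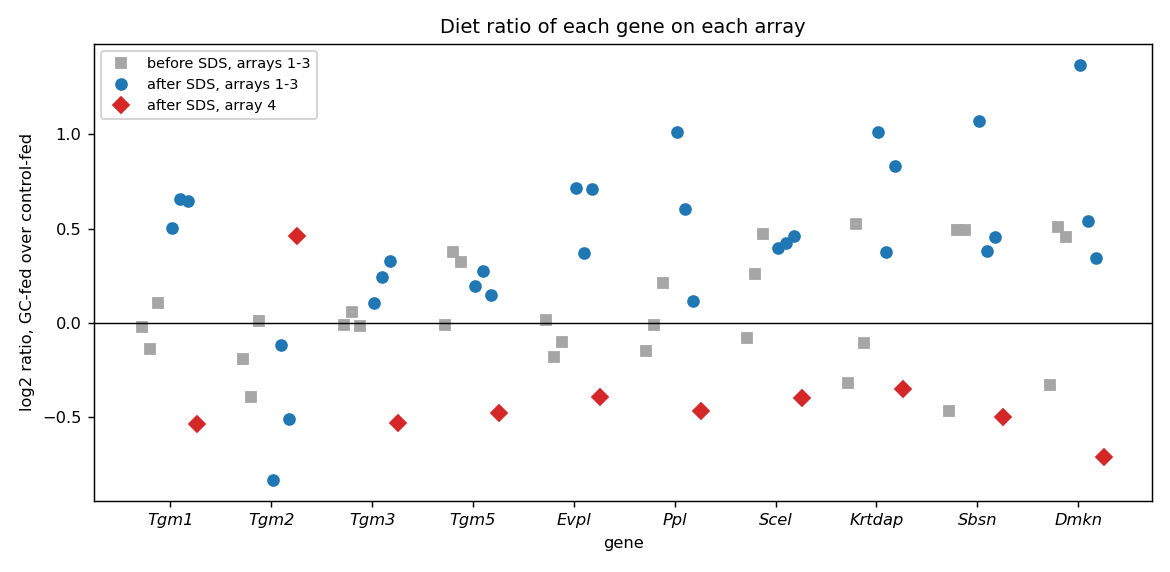
Log2 ratio of GC-fed to control-fed skin for the brightest probe of each gene on each array: grey squares before SDS (arrays 1 to 3), blue circles after SDS (arrays 1 to 3) and a red diamond for after-SDS array 4. In 9 genes the blue points lie above 0 and the red point between -0.71 and -0.35, and in Tgm2 the signs are reversed.

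With all 4 arrays, 0 of 10 members passed in limma for the diet effect after SDS, as did 0% of genes (764 genes, 4.47%, had an unadjusted p under 0.05, and 0 of them were members). The fitted effect was above 0 in 9 of 10 members, against 49.6% of genes, with a median of 0.32. It was 0.32 (SE 0.19) for Tgm1, 0.35 (SE 0.17) for Evpl and 0.47 (SE 0.24) for Krtdap. The other members were at 0.04 (SE 0.14) for Tgm3, 0.04 (SE 0.14) for Tgm5, 0.32 (SE 0.19) for Ppl, 0.22 (SE 0.17) for Scel, 0.35 (SE 0.27) for Sbsn, 0.38 (SE 0.31) for Dmkn and -0.25 (SE 0.19) for Tgm2. Each of the 10 had a limma adjusted p of 0.835 or more. The 95% intervals of Tgm5, from -0.29 to 0.36, and of Ppl, from -0.14 to 0.77, hold for this normalization. With the scanner's processed signals Tgm5 was at 0.47, outside that interval, and in the authors' deposited table at 0.28, and Tgm3 was at 0.21 and 0.19, and none of these passed. Without after-SDS array 4, which was singled out because it opposed the rest, 4 members passed in limma: Tgm1 (0.61, adjusted p = 0.0151), Evpl (0.60, adjusted p = 0.0252), Scel (0.47, adjusted p = 0.0404) and Krtdap (0.80, adjusted p = 0.0485). In the same limma fit Ppl (0.54, adjusted p = 0.105), Tgm3 (0.24, adjusted p = 0.106), Tgm5 (0.23, adjusted p = 0.184), Sbsn (0.69, adjusted p = 0.111), Dmkn (0.77, adjusted p = 0.12) and Tgm2 (-0.49, adjusted p = 0.112) did not. In that fit 927 genes passed.

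The change of the diet effect with SDS is the difference between the ratios after and before it, and 0 of 10 members passed (0% of genes; 206 genes, 1.2%, at an unadjusted p under 0.05, and 0 of them members). The difference was above 0 in 7 of 10 members, against 48.5% of genes. It was largest for Krtdap, at 0.43, and Evpl, at 0.39 (SE 0.26), and lowest for Tgm5, at -0.21. Evpl went from ratios of -0.18 to 0.02 before SDS to 0.37 to 0.71 on after-SDS arrays 1 to 3 and -0.39 on array 4, which was below all before-SDS ratios. The Krtdap difference was 0.0328 without before-SDS array 1 and 0.82 without after-SDS array 4, and that of Evpl ranged from 0.14 to 0.69 with 1 array left out. Scel had the same fitted ratio before and after, 0.23 and 0.22, a difference of -0.0037 (SE 0.26).

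Probes of a gene did not always give the same ratio. Of the 10 members 4 had 1 probe, 5 had 2 and Tgm2 had 3. The Krtdap probes had the same sign on 7 of 7 arrays and differed by a root mean square (RMS) of 0.13, and those of Evpl by 0.21, with 6 of 7 signs shared. The Sbsn probes shared 3 of 7 signs (RMS 1.18) and the Dmkn probes 4 of 7 (RMS 0.57). The dimmer Sbsn probe was at 2.59, 1.73, -0.93 and -1.63 on after-SDS arrays 1 to 4 as GC-fed over control-fed. As red over green it was at -2.59, -1.73, -0.93 and -1.63, and at -0.51, -0.35 and -0.36 before SDS, so green was brighter on all 7 arrays. The dimmer Dmkn probe, as red over green, was at -1.91, -1.16, -0.34 and -1.35 after SDS. After SDS the sign of both probes followed the dye and not the diet label, and their diet effects of 0.44 (SE 0.35) and 0.34 (SE 0.33) after SDS did not pass (limma adjusted p = 0.835 and 0.837).

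**Figure D4:**
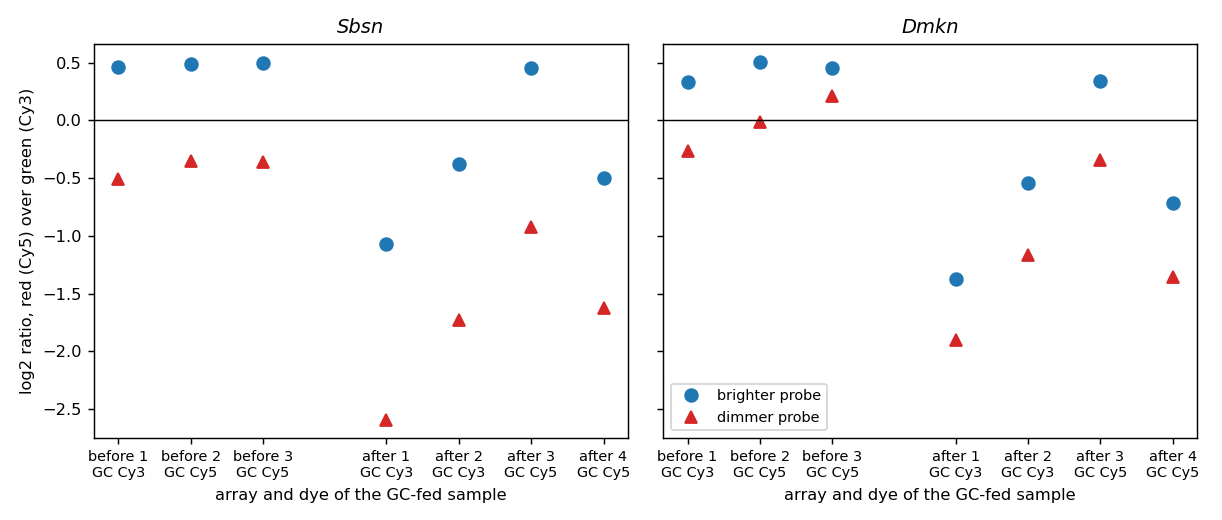
Log2 ratio of the red (Cy5) over the green (Cy3) channel for both probes of Sbsn and Dmkn on each array, with the dye of the GC-fed sample under each array. The dimmer Sbsn probe (red triangles) lies below 0 on all 7 arrays, from -2.59 to -0.35, whichever dye the GC-fed sample carried.

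The dim Tgm2 probes stood apart in another way. On after-SDS arrays 1, 2 and 4 they lay between -0.07 and 0.11, and on array 3 at -1.07 and -0.94. The brightest Tgm2 probe did not have this shape. The dimmer Ppl probe was at 0.08, 0.77, 0.34 and -0.26 after SDS, the sign pattern of the brighter one.

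Set against each other over the 7 arrays, Tgm1 and Evpl were the closest of the members, at an RMS difference of 0.17, as were Sbsn and Dmkn (0.17) and Tgm5 and Scel (0.17). Tgm2 was the farthest member from each of the other 9, at 0.65 to 1.10. Over all genes, among those closest to the median profile of the 10 were Dhcr7, the last enzyme of cholesterol synthesis (RMS difference 0.07), Gpsm1, a regulator of G proteins (0.07), the transcript AK160276 (0.08) and Slc6a9, a glycine transporter (0.09). Dhcr7 was at 0.64, 0.46, 0.35 and -0.51 on the after-SDS arrays. All these values share the same arrays and are a description of them.

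Some lists of other envelope genes had the members' order of signs in the diet ratio after SDS, and others did not. Of 53 proteins that transglutaminases join or that lie beside them, 39 were measured, and their median ratio was 0.74, 0.51, 0.47 and -0.71 on the after-SDS arrays, with 35, 33, 30 and 7 of 39 above 0. Other plakins and desmosome anchors had medians of 0.59, 0.54, 0.38 and -0.44, and genes of the lipid envelope 0.69, 0.49, 0.15 and -0.45. Genes listed around transglutaminase processing, mostly proteases and protease inhibitors, did not share the order, at 0.15, 0.0091, -0.09 and 0.29. Nor did the protease inhibitor Cst6, at 0.14, -0.26, 0.83 and 0.74, or the plakin Plec, at 0.07, 0.52, -0.47 and -0.17. Loricrin (Lor), the bulk protein of the envelope, was at 1.90, 0.76, 0.69 and -1.15, involucrin (Ivl), a substrate of the first cross-links, at 0.40, 0.71, 0.51 and -0.76, and filaggrin (Flg), which bundles keratin, at 1.82, 0.64, 0.55 and -1.10. With SDS 0 of the 39 passed in control-fed skin, at a median of -0.13, and 1 passed in GC-fed skin, the S100-fused protein repetin (Rptn), lower, at a median of 0.08. Ivl was at -0.64 (SE 0.22, limma adjusted p = 0.0646) in control-fed skin, and Lor at -0.10 and 0.20.

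Of 14 other plakins and desmosome anchors, all measured, 3 fell with SDS in control-fed skin (Dsp, Dst and Dsg1c) and 3 in GC-fed skin (Dst, Dsg1c and Eppk1). Desmoplakin (Dsp), the plakin that binds keratin filaments to desmosomes, was at -0.42 (SE 0.13, limma adjusted p = 0.0497) in control-fed and -0.06 in GC-fed skin. Plectin (Plec) was at -0.23 and -0.31 and corneodesmosin (Cdsn) at -0.29 and -0.13, and neither passed. Dst, Dsg1c and Eppk1, like Rptn above and Casp14, Rarres1, Aloxe3, Elovl1 and Fa2h below, are named because they passed.

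Of 14 genes that make or attach the lipid envelope, 12 were measured, and 4 fell in control-fed skin (Alox12b, Aloxe3, Elovl1 and Fa2h) and 1 in GC-fed skin (Alox12b), with medians of -0.45 and -0.37. Alox12b, the lipoxygenase that prepares ceramides for attachment, was at -0.86 (SE 0.14, limma adjusted p = 0.00375) and -0.72 (SE 0.14, adjusted p = 0.0101). Ugcg, the glucosylceramide synthase, was at 0.07 and 0.10, and Cers3 had 0 probes under that name. Of 11 genes listed around transglutaminase processing, mostly proteases and protease inhibitors, 10 were measured, and Casp14 and Rarres1 fell in both diets. Whether Casp14 and Rarres1 act on transglutaminases was not tested. Cystatin M/E (Cst6), a protease inhibitor, was at -0.19 and 0.04, and cathepsins L (Ctsl) and D (Ctsd) at 0.20 and 0.12 and at 0.08 and -0.06. Among other genes of the transglutaminase fold, 3 of 5 were measured and 0 passed, F13a1 at 0.01 and -0.05. Epb42, a membrane protein of red cells with that fold, was above background in 2 of 14 channels at most and was not tested.

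Markers of cell layers and of other cell types also changed with SDS, some lower like the members and some higher. The lists share genes and are not independent. Lor, Flg, Ivl, Dsg1a and Dsc1 of the lists above are also granular and spinous markers, Dst a basal marker and Tchh a hair follicle marker. In control-fed skin 9 of 9 granular and spinous keratinocyte markers outside the members lay below 0 with SDS, at a median of -0.35, and 1 passed (Krt2). In GC-fed skin 5 of 9 did, at a median of -0.03. Their summed intensity, divided by 1000, ranged from 271.9 to 390 before and 168 to 473.6 after SDS in control-fed samples, and from 332.2 to 394.3 and 232 to 723.7 in GC-fed samples, so the after-SDS samples spread widely. Basal keratinocyte markers had medians of -0.34 and -0.16, with 7 of 8 below 0 in each diet and 4 and 1 of them past the threshold as lower. Hair follicle markers rose, 8 of 18 in control-fed and 14 of 18 in GC-fed skin, with 18 of 18 above 0 in both; their summed intensity went from 87.06 to 471.3 before to 240.9 to 559 after in control-fed and from 81.28 to 211.3 to 330.1 to 560.4 in GC-fed samples. Krt72, Krt73, Krt81 and Krt83 of that list had 0 probes under those names. In control-fed skin 3 of 8 adipocyte markers rose, at a median of 0.40, and 2 of 10 skeletal muscle markers, at 0.37. In GC-fed skin 0 of either list rose, at medians of 0.0007 and -0.19, and 1 adipocyte marker (Lipe) fell. Of 10 endothelial markers 4 fell in GC-fed skin, at a median of -0.29, and 1 (Vwf) in control-fed skin, at -0.13. The part of these cells in the SDS effects on the members was not tested.

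For the diet ratio after SDS, granular and spinous markers had medians of 1.23, 0.71, 0.69 and -0.87 on arrays 1 to 4, and basal markers 0.50, 0.34, 0.59 and -0.22. Macrophage and monocyte markers ran the other way, at -0.77, -0.55, -1.07 and 0.54, with 0, 1, 0 and 14 of 14 above 0. Their summed intensity, divided by 1000, ranged from 122.1 to 357.5 in control-fed and from 107.3 to 331.3 in GC-fed samples after SDS, and 14 of 14 were measured. Skeletal muscle markers were at -1.24, -0.40, -1.49 and -0.21, and adipocyte markers at -0.23, -0.40, -0.97 and -0.19, below 0 on each array. Sebaceous gland markers had the members' order of signs, at 0.07, 0.03, 0.13 and -0.30, and fibroblast, endothelial, smooth muscle and hair follicle medians, between -0.62 and 0.96, did not. The part of these markers in the members' ratios was not tested.

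**Figure D5:**
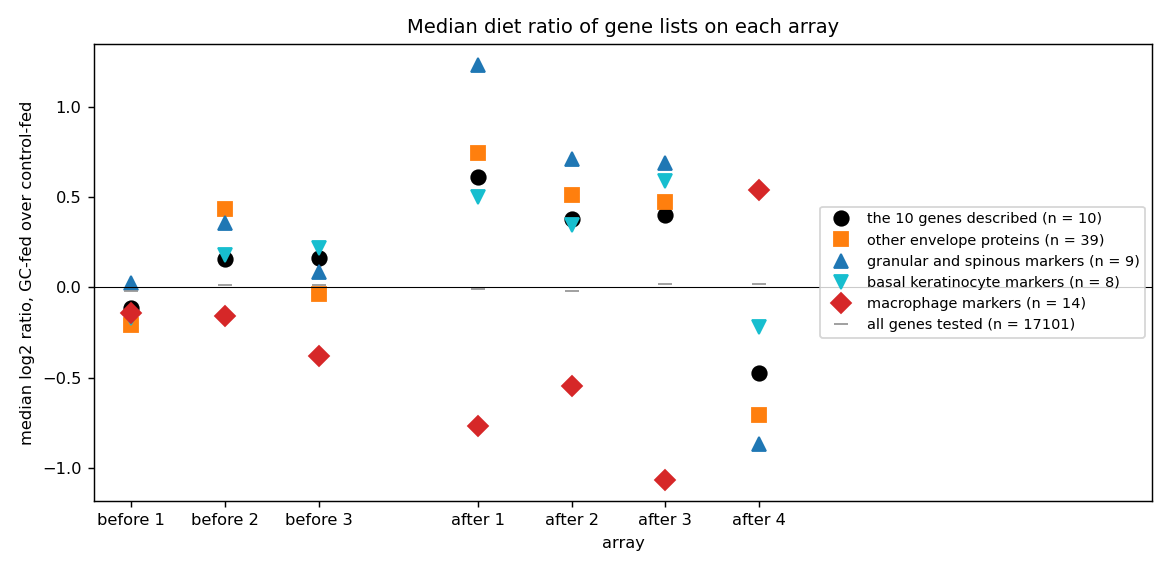
Median log2 ratio of GC-fed to control-fed skin on each array for the 10 genes, for 39 other envelope proteins, for markers of granular and spinous, basal and macrophage cells, and for all genes. The members (0.61, 0.38, 0.40 and -0.47 after SDS) lie on the same side of 0 as the keratinocyte markers, and macrophage markers (-0.77, -0.55, -1.07 and 0.54) on the other side. The envelope proteins and the granular and spinous markers share Lor, Flg and Ivl.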

How the data were processed

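Dorsal skin RNA of 7 pairs of GC-fed and control-fed samples was measured on two-colour Agilent arrays. The scanner files give, per the file headers, the intensity of each spot as read by Agilent Feature Extraction 9.1.3.1 (mean signal, local background and a processed signal). The authors also deposited intensity per gene, floored at 200, with the log2 ratio they calculated; that table served as an alternative, with 10834 of its 13088 genes used.

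In limma 3.58.1 (R 4.3.3) the mean signal was corrected by normexp (offset 50) and normalized by loess within arrays, with control spots at weight 0, and by Aquantile between arrays. A probe was kept if 3 or more of the 14 channels were well above background, and the brightest probe per gene was used, which left 17101 genes. Diet effects came from 1 fit to the 7 log2 ratios with a dye term (lmFit, eBayes). SDS effects came from the separate-channel fit in 4 groups with a dye term; the correlation within spots was estimated at 0. Benjamini-Hochberg adjustment ran over all genes, with 0.05 as the threshold. Both fits were run on simulated data with independent normal errors. The simulation held no slide difference, dye bias or opposed array, so it does not cover these features of the data. The number of arrays limits the precision.

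The members, the lists of other genes and the markers were chosen with earlier results of these data known. All 10 members are named, and of each other list a few examples set by name. Of the genes closest to the members' profile, 1 is not reported here. Alternatives were the processed signals, other filters on dim probes, the mean of all probes, no dye term, the replicate number as a block, the deposited table, median centring, array weights, quantile normalization, each array left out, and, added after seeing the data, each other probe of a member.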

Additional observations from a re-analysis of the deposited data

Results flagged for a closer look

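In 6 of 51 sets of 4 after-SDS values, 1 sample lay farther from the rest than Dixon's 95% critical value allows; chance flags about 1 in 20 such sets. The diet ratio on after-SDS array 4 was low for Tgm1, at -0.54 where the other arrays held 0.50 to 0.66, for Tgm5, at -0.48 against 0.15 to 0.27, and for Scel, at -0.40 against 0.40 to 0.46. The level of Tgm1 in the GC-fed sample of array 4 was 10.75, where the other GC-fed samples held 11.45 to 11.56. Both dim probes of Tgm2 were low on after-SDS array 3, at -1.07 and -0.94, where the other arrays held -0.01 to 0.11 and -0.07 to 0.08. The sets share their arrays and are not independent.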

How the results depend on the processing

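No member past the threshold changed direction under any setting; reversed results had values of 0.22 or less in size with all arrays, and none was past the threshold. With 1 array left out, the median member diet effect ranged from 0.0175 to 0.49 before SDS, from 0.10 to 0.57 after it and from -0.20 to 0.53 for the difference; members called for the diet effect after SDS ranged from 0 to 4 and genes from 0 to 927 (56 at most for the difference). For SDS, members called ranged from 0 to 6, genes from 108 to 3671 and the median from -0.49 to -0.23 in control-fed skin, and from 0 to 5, 563 to 2751 and -0.39 to -0.17 in GC-fed skin.

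Leaving out 1 array also turned the sign of small effects. Before SDS the ranges were -0.0821 to 0.25 (Tgm1), -0.0147 to 0.16 (Tgm3), -0.0902 to 0.0499 (Evpl), -0.0817 to 0.59 (Ppl) and -0.21 to 0.44 (Krtdap). After SDS they were -0.12 to 0.24 (Tgm3) and -0.04 to 0.23 (Tgm5). For the difference they were -0.30 to 0.19 (Tgm2), -0.18 to 0.25 (Tgm3), -0.51 to 0.0221 (Tgm5), -0.28 to 0.49 (Ppl), -0.33 to 0.29 (Scel), -0.52 to 0.58 (Sbsn) and -0.67 to 0.57 (Dmkn). For SDS they were -0.21 to 0.012 (Tgm3) and -0.25 to 0.28 (Sbsn) in control-fed, and -0.23 to 0.13 (Tgm1), -0.21 to 0.0358 (Tgm3) and -0.23 to 0.32 (Sbsn) in GC-fed skin.

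Genes called in control-fed skin numbered 2552 with the chosen settings, 1667 with the replicate block and 1588 in the deposited table, where 10834 genes in place of 17101 were tested; in GC-fed skin they numbered 2309, and 1312 with the processed signals, 1530 with the block and 1018 in the deposited table. Members called in GC-fed skin were 0 with the processed signals and 1 (Ppl) in the deposited table. Apart from the smaller number of genes in that table, the cause was not tested. The diet ratios of same-numbered before-SDS and after-SDS arrays deviated together at r = -0.087, -0.045 and 0.187. Control-fed levels did so at r = -0.127, -0.087 and 0.29, and GC-fed levels at 0.089, -0.197 and -0.129. The labels do not say whether equal numbers mean the same mice, and these values cannot decide it. The block ended the call of Krtdap (limma adjusted p = 0.0898) and of no other member.

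Small effects reversed as follows. With the mean of all probes, Evpl was at 0.0144 and Ppl at -0.0086 before SDS, and Evpl at -0.0517 and Sbsn at -0.19 for SDS in GC-fed skin. Without the dye term Tgm1 was at -0.019 before SDS and the Scel difference at 0.0047. With the replicate block, Tgm1 was at -0.0175, Tgm3 at -0.0045 and Krtdap at -0.0481 before SDS, and the Scel difference at 0.041. With array weights Sbsn was at 0.74 and Dmkn at 0.83 after SDS, Krtdap was at -0.0104 before SDS and the Scel difference at 0.17. With processed signals the differences of Tgm5 and Scel were 0.0559 and 0.13, and in the deposited table that of Scel was 0.13 and the SDS effect of Sbsn in GC-fed skin -0.0065. With quantile normalization Sbsn was at 0.0034 for SDS in control-fed skin. Other probes gave, before SDS, 0.0693 (Evpl) and -0.12 (Ppl), a difference of -0.0614 for Dmkn, and -0.32 (Evpl) and -0.48 (Sbsn) for SDS in GC-fed skin.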
